A study of Homo sapiens with 2 samples.

Results

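The JAK and STAT signalling genes described here are the kinases JAK1, JAK2, JAK3 and TYK2, the transcription factors STAT2, STAT3, STAT5A, STAT5B and STAT6, and the feedback inhibitor SOCS2. They are 10 of 49672 gene names in the deposited tables and were chosen by symbol. Each of the 10 had a single row, and none was joined with another symbol. RNA was measured in C4-2B cells, a prostate cancer line derived from LNCaP that grows without androgen and models castration-resistant disease of bone. Cells were given 2.5 µM MA4-022-1, which the labels call a BET and kinase inhibitor, or DMSO as vehicle. BET proteins are readers of acetylated chromatin. There was 1 library per group, the time of exposure is not stated in the labels, and the study looked for targets of the compound on which growth of castration-resistant cells depends. Differences between the libraries thus could not be checked against replicates, and none carries a p-value. Fewer cells of a kind and less RNA per cell cannot be told apart in such samples.

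Cytokines and some hormones bind receptors that have no kinase of their own and borrow a pair of JAK kinases. The activated JAKs phosphorylate the receptor and then STAT proteins, which pair up, enter the nucleus and bind palindromic DNA sites, and genes of the SOCS family are among those they switch on and in turn shut the receptor down. In prostate cancer the pathway is known mostly for STAT3 downstream of interleukin 6 and for STAT5, and LNCaP, the parent line, is known for a loss of JAK1 and a weak response to interferon. The values are RNA levels and hold nothing on kinase activity or STAT phosphorylation.

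The promoter of CISH, a SOCS family gene that STAT5 induces, is printed here because it shows letters that STATs bind, and that of JAK1 because JAK1 had the largest difference of the members. RefSeq promoter windows of 300 bases on GRCh38.p14 matched 9 of the 10 members in 16 windows, and the missing entry was SOCS2. The letters TTCNNNGAA, which read the same on both strands, were in 0 of the 16 member windows and in 7.66% of all 35116 windows. The CISH window held them 4 times, a number reached by 7 of all windows, with the matches beginning 241, 230, 129 and 112 bases before the start. Below, the 250 bases before the start are printed 5′ to 3′ on the minus strand. TTCNNNGAA is in capitals for CISH (chr3:50611775-50612024). For JAK1 (chr1:64966550-64966799) the capitals mark GGGCGG, the GC box known for binding SP1, or its reverse complement CCGCCC.
CISH: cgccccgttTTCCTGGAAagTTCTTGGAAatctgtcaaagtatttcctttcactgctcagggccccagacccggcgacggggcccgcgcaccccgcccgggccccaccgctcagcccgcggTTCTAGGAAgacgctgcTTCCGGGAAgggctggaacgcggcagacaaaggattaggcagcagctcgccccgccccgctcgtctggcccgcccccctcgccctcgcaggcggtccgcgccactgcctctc
JAK1: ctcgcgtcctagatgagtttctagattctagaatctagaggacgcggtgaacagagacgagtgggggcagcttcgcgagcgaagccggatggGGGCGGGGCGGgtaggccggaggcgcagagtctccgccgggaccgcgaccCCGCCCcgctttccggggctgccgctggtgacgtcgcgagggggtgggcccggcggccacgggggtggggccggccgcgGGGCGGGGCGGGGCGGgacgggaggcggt
The printed JAK1 window held the GC box 6 times, some of them overlapping one another, and the other JAK1 windows held it 0 times. The GC box was in some window of 8 of the 9 matched members, several of which had more than 1 window. It was in 44.95% of all windows, a share per window and not per gene, so the 2 cannot be compared. Of all windows 5.14% held it 5 times or more, and the share with 6 was not computed. These are letter matches, not measured binding sites.

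Values are RPKM, reads scaled to transcript length and to the mapped total, as the authors deposited them. The steps of low values placed the totals behind them at 19905548 reads for the MA4-022-1 library and 27136124 for the vehicle library. A single read on 2000 nt of transcript came to 0.0279 RPKM with MA4-022-1 and 0.0205 RPKM with vehicle. Each difference is given as the log2 of RPKM + 1 with MA4-022-1 over RPKM + 1 with vehicle, and folds are on that scale unless called unadjusted, so they understate the change of low genes. Intervals are 95%, rest on reads estimated from transcript length and cover counting error only. Genes with 1 RPKM or more in a library are called expressed. Gene coordinates follow the authors' hg19 loci, some of which take in a neighbour.

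The cells carried prostate epithelial markers and next to no leukocyte RNA. All 10 listed epithelial markers were expressed, and the 8 with rows of their own summed to 1338 RPKM in the MA4-022-1 library and 1483 RPKM in the vehicle library. Of 12 leukocyte markers, the 11 with rows of their own were under 1 RPKM in both libraries and summed to 0.779 RPKM with MA4-022-1 and 0.945 RPKM with vehicle, and 4 of them were listed at 0 in both, while CD68 had its value in a row joined with EIF4A1 and SENP3. Of 10 fibroblast and endothelial markers 8 were under 1 RPKM. COL1A1, a collagen gene, was at 5.03 RPKM with MA4-022-1 against 1.19 RPKM with vehicle. VIM, the other expressed marker, went the other way, at 2.60 RPKM with MA4-022-1 against 2.96 RPKM with vehicle.

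Of the 10 genes, 1 was at least 2-fold higher with MA4-022-1, none was at least 2-fold lower and 9 lay within 2-fold. Over all 15429 expressed genes, 7.72% were higher by that measure and 9.56% lower, or 11.3% and 6.52% when housekeeping controls were set to 0. Among 9840 expressed protein-coding genes the shares were 4.12% and 9.49% on the scale as deposited, and among those that reached 5 RPKM they were 4.07% and 9.98%. JAK1 was the member beyond 2-fold, STAT3 and STAT6 had the next largest ratios, and 8 of the 10 genes reached 1 RPKM in a library. The median log2 ratio of those 8 was 0.25, against -0.02 over all expressed genes and -0.10 over expressed protein-coding genes, and over all 10 members it was 0.042. STAT6 reached 1 RPKM only through the MA4-022-1 library, so its place among the 8 leans towards a higher value and nothing is read from that median.

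**Figure D1:**
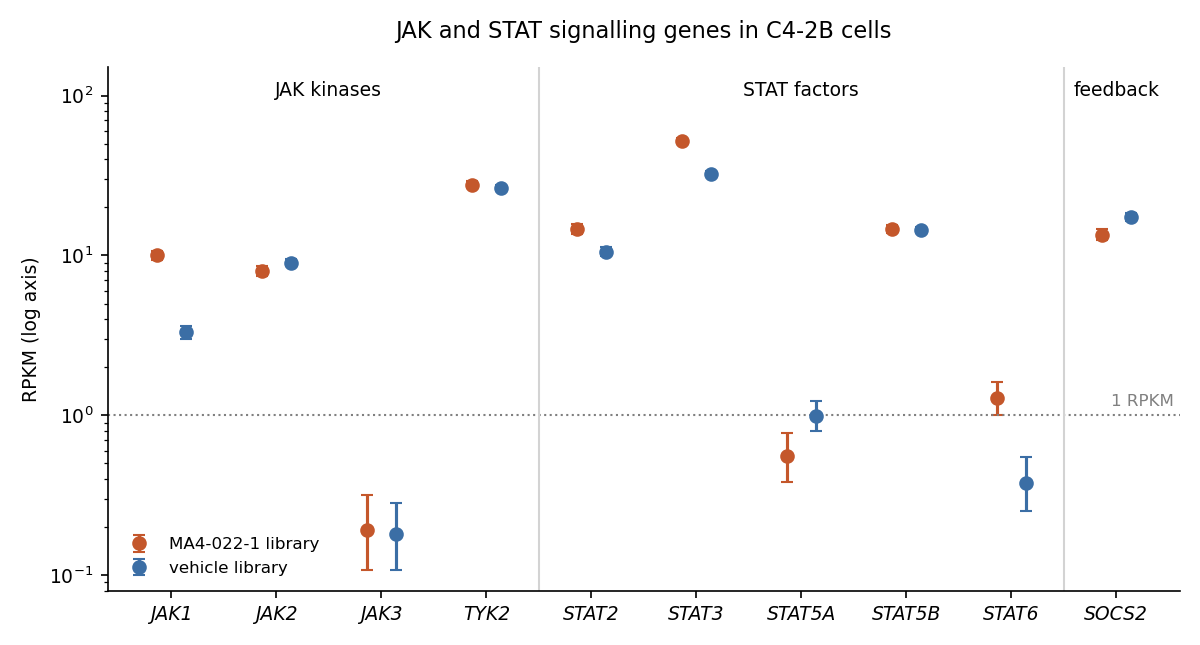
RPKM of each gene on a log axis, with the MA4-022-1 library left of the vehicle library and bars for 95% counting intervals; each point is 1 library. JAK1 stands at 10.02 RPKM with MA4-022-1 against 3.32 RPKM with vehicle, while TYK2 and STAT5B lie nearly level and JAK3, STAT5A and STAT6 lie low.

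JAK1, which serves the interferon, interleukin 6 and common gamma chain receptors, had the largest ratio of the 10 genes (chromosome 1, 65210778 to 65432187). It stood at 10.02 RPKM in the MA4-022-1 library and 3.32 RPKM in the vehicle library, about 966 and 436 reads. The log2 ratio was 1.35, with a counting interval from 1.22 to 1.48, a fold of 2.55. Without the added 1 RPKM the values were 3.02-fold apart, with an exact interval from 2.69 to 3.39. Of the expressed protein-coding genes, 1.69% had a ratio at least as high. With 5 RPKM added in place of 1 the log2 ratio was 0.85, under 2-fold.

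The deposited locus of JAK1 also holds RAVER2, an RNA-binding protein gene that meets JAK1 end to end on the opposite strand. RAVER2 went the other way, at 4.89 RPKM with MA4-022-1 against 7.98 RPKM with vehicle. In GENCODE release 29 the exons of the 2 genes share 4 bases of the 5047 exonic bases of JAK1. No stretch of 50 bases, the read length, from the coding transcripts of JAK1 recurred in another annotated gene.

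JAK2, the kinase of the growth hormone, prolactin and erythropoietin receptors, stood at 7.97 RPKM with MA4-022-1 and 9.03 RPKM with vehicle (chromosome 9, 4985033 to 5128391). Its log2 ratio was -0.16, with a counting interval from -0.28 to -0.047, and turned to 0.017 with housekeeping controls set to 0. TYK2, which pairs with JAK1 at interferon and interleukin 10 family receptors, stood at 27.8 RPKM with MA4-022-1 and 26.4 RPKM with vehicle (chromosome 19, 10461209 to 10491352). The interval of its log2 ratio, from -0.013 to 0.15, included 0. JAK3, known chiefly from lymphocytes, stood at 0.192 RPKM with MA4-022-1 and 0.180 RPKM with vehicle, about 15 and 19 reads (chromosome 19, 17935589 to 17958880). The unadjusted ratio of JAK3 was 1.07, with an exact interval from 0.509 to 2.24, so the direction of a difference was not resolved at that depth.

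TYK2 was the most abundant of the 4 kinases per length in both libraries and JAK3 the least. JAK1 and JAK2 stood in opposite order in the 2 libraries. JAK1 was 1.26 times JAK2 with MA4-022-1 and 0.367 times JAK2 with vehicle, and in neither library did their counting intervals overlap. Of the summed RPKM of the 4 kinases, 46.0 with MA4-022-1 and 39.0 with vehicle, JAK1 made up 21.8% and 8.52%, and TYK2 60.4% and 67.8%.

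**Figure D2:**
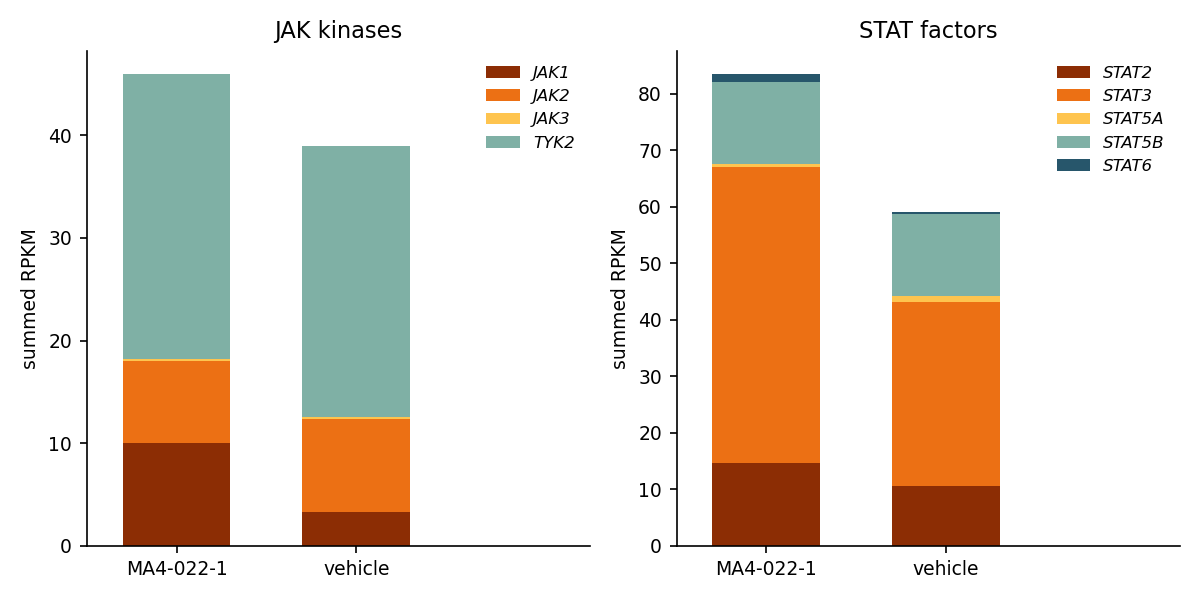
Summed RPKM of the 4 JAK genes and of the 5 STAT genes studied here, stacked by gene, with the MA4-022-1 library left of the vehicle library. The JAK1 part is 21.8% of the kinase sum with MA4-022-1 against 8.52% with vehicle, and the STAT3 part is 62.7% of the STAT sum against 55.2%.

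STAT3, the factor downstream of interleukin 6 and its relatives, was the most abundant STAT member and stood at 52.3 RPKM with MA4-022-1 and 32.5 RPKM with vehicle (chromosome 17, 40465342 to 40540586). The log2 ratio was 0.67, with a counting interval from 0.59 to 0.75, or 1.59-fold. Of the expressed protein-coding genes 10.4% had a ratio at least as high. STAT2, which works with IRF9 in the complex that type I interferons activate, stood at 14.6 RPKM with MA4-022-1 and 10.6 RPKM with vehicle, 1.35-fold apart (chromosome 12, 56735381 to 56753951). Its log2 ratio of 0.43 had a counting interval from 0.30 to 0.56. These 2 ratios stayed above 0 and within 2-fold under each alternative scale and pseudocount tried. Filters and row choices could not change them, as each gene had a single row.

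STAT5B, the factor of growth hormone and prolactin signalling together with STAT5A, stood at 14.6 RPKM with MA4-022-1 and 14.5 RPKM with vehicle (chromosome 17, 40351186 to 40428725). The interval of its log2 ratio ran from -0.080 to 0.10. STAT5A, its neighbour on the chromosome, was far lower, at 0.555 RPKM with MA4-022-1 and 0.995 RPKM with vehicle (chromosome 17, 40439565 to 40463961). The unadjusted ratio of STAT5A was 0.558, with an exact interval from 0.359 to 0.831, on about 34 and 84 reads. STAT5B was 26.4 times STAT5A with MA4-022-1 and 14.6 times with vehicle.

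The 2 STAT5 genes are close copies, and 10.5% of the 50-base stretches in coding transcripts of STAT5A also occur in STAT5B. How the authors' counting placed such reads is not stated in the labels, so the low STAT5A value is uncertain. The longest stretch shared by both coding sequences ran for 429 nt, from base 564 to base 992 of each, counted from the start codon. Its first 120 bases, up to base 683, show how a read of 50 bases can fit either gene.
STAT5A and STAT5B: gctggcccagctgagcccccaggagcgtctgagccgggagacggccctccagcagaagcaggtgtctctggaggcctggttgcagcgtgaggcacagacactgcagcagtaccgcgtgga

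STAT6, the factor of interleukin 4 and interleukin 13, stood at 1.29 RPKM with MA4-022-1 and 0.378 RPKM with vehicle (chromosome 12, 57482677 to 57607134). The unadjusted ratio of 3.40 was the highest of the 10 genes, with an exact interval from 2.17 to 5.49 on about 70 and 28 reads. With 1 RPKM added the log2 ratio was 0.73, or 1.66-fold, so the gene was within 2-fold on the scale used here and past it with 0.1 RPKM added. The same locus holds LRP1, a lipoprotein receptor gene at 2.14 RPKM with MA4-022-1 against 0.482 RPKM with vehicle, and NAB2, a corepressor gene at 2.01 against 2.58 RPKM. The exons of STAT6 share 59 bases with LRP1 and 69 with NAB2, each on the opposite strand, and the part of these genes in the STAT6 value was not tested.

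SOCS2, the inhibitor that growth hormone and STAT5 induce and that androgen is known to raise in prostate cells, stood at 13.5 RPKM with MA4-022-1 and 17.4 RPKM with vehicle (chromosome 12, 93936239 to 93977263). Its log2 ratio was -0.34, with a counting interval from -0.48 to -0.21, or 1.27-fold lower. The antisense gene SOCS2-AS1 in the same locus stood at 4.80 RPKM with MA4-022-1 and 3.57 RPKM with vehicle. Its exons share 240 bases, or 3.83%, with those of SOCS2, and without a stated strand setting reads there cannot be told apart. Of the STAT5 target genes CISH and SOCS2, CISH was the lower by far, at 0.191 RPKM with MA4-022-1 and 0.524 RPKM with vehicle.

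**Figure D3:**
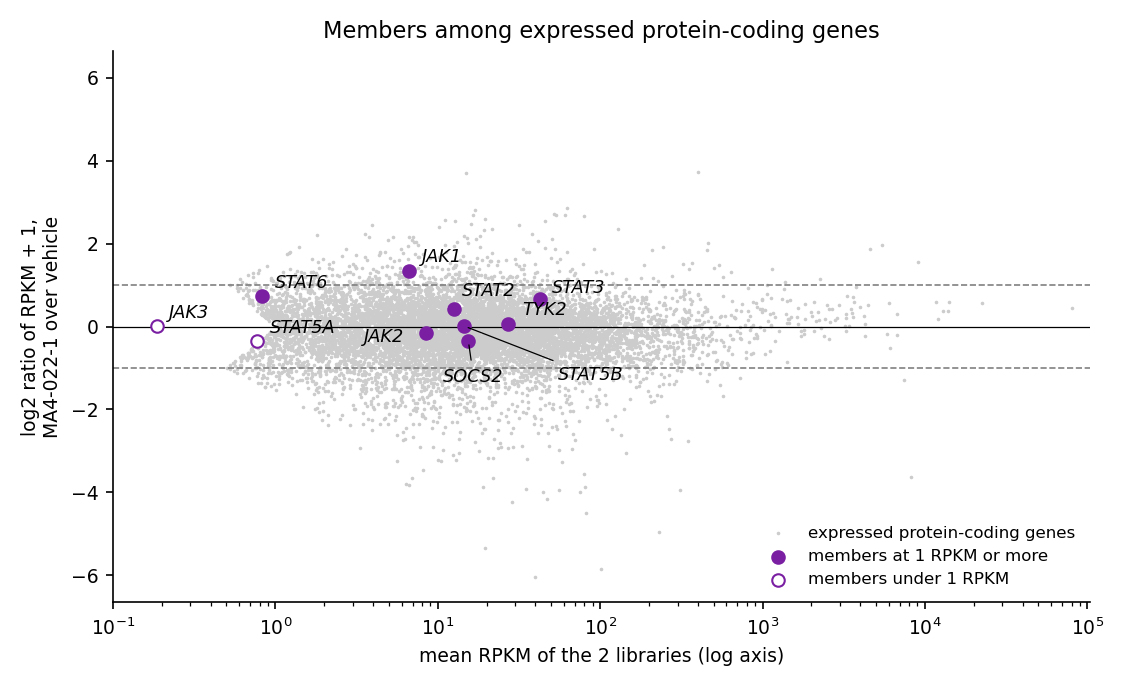
Log2 ratio of RPKM + 1, MA4-022-1 over vehicle, against the mean RPKM of the 2 libraries on a log axis, for 9840 expressed protein-coding genes in grey and the 10 members in purple, open where under 1 RPKM in both libraries. Dashed lines mark 2-fold, and JAK1 at 1.35 is the member outside them.

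Most of the receptors, ligands and regulators around the JAKs and STATs lay within 2-fold as well. STAT4, known chiefly from lymphocytes, was listed at 0 with MA4-022-1 and at 0.0143 RPKM with vehicle, and the row that joins IRF9 with RNF31 was at 24.4 RPKM with MA4-022-1 and 28.5 RPKM with vehicle. Of 41 receptor genes of the pathway 19 were expressed, 7 of them in joined rows. None was beyond 2-fold, against 17.3% of all expressed genes and 13.6% of expressed protein-coding genes. With housekeeping controls set to 0, 3 receptors were higher past 2-fold and none lower, against 11.3% and 6.52% of all expressed genes. With 0.1 RPKM added in place of 1, 2 were higher and 1 lower, against 12.7% and 13.3%. The median log2 ratio of the expressed receptors was 0.16, and -0.012 without the filter on low values. The 0.16 is the value of a row that joins IFNAR2 with IL10RB and was counted for both. With joined rows left out the median was 0.20. IL6ST, the signalling chain gp130 of the interleukin 6 family, was at 99.4 RPKM with MA4-022-1 and 69.1 RPKM with vehicle. The row that joins IL20RB with NCK1 was at 91.7 RPKM with MA4-022-1 and 106 RPKM with vehicle. Among receptors chosen after their values were seen, LIFR, which pairs with gp130, was at 23.4 against 13.3 RPKM, and CSF2RA, a chain of the GM-CSF receptor, was closest to the threshold at 4.57 against 1.81 RPKM.

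Of 34 ligand genes 27 were under 1 RPKM in both libraries, and 2 of the 6 expressed ones were at least 2-fold higher. By that measure 7.72% of all expressed genes and 4.12% of expressed protein-coding genes were higher. When 5 RPKM was required 1 ligand was higher, against 4.07% of protein-coding genes that reached it. IL7, a lymphocyte growth factor whose receptor uses JAK1 and JAK3, was at 78.9 RPKM with MA4-022-1 and 12.6 RPKM with vehicle, summed over 6 rows. All 6 rows were higher with MA4-022-1, and in 1 of them the vehicle library was listed at 0. The log2 ratio of the sum was 2.55, or 5.86-fold. The 2 chains of its receptor were near 0, with IL7R listed at 0 with MA4-022-1 and at 0.105 RPKM with vehicle, and IL2RG listed at 0 in both. The other ligand, IL4, chosen after its values were seen, was at 2.34 RPKM with MA4-022-1 and listed at 0 with vehicle, so it counted as expressed only through the library in which it was higher. IL6 and OSM were listed at 0 in both libraries. The ligands of highest level in the vehicle library were in joined rows, CLCF1 with POLD4 at 33.99 against 30.6 RPKM, and GH1 with CSHL1 at 34.98 against 28.4 RPKM.

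Of 27 negative regulators 21 were expressed, 1 was at least 2-fold higher and none at least 2-fold lower. Of all expressed genes 7.72% were higher and 9.56% lower by that measure, and of expressed protein-coding genes 4.12% and 9.49%. The median log2 ratio of the expressed negative regulators was 0.017, and -0.094 with equal sums over the expressed genes. PIAS3, an inhibitor of STAT3, was the higher one, at 21.4 RPKM with MA4-022-1 and 6.66 RPKM with vehicle. These values are summed over 2 rows and give a fold of 2.92. TCEB2 and CUL5, parts of the ubiquitin ligase that SOCS proteins recruit, were at 302 and 71.0 RPKM with MA4-022-1 and at 269 and 77.1 RPKM with vehicle. SOCS1 and SOCS3, inhibitors that cytokines induce, were under 0.1 RPKM in both libraries. Of 17 adaptors and STAT coactivators 15 were expressed, with a median of 0.081. GAB1, a docking protein chosen after its values were seen, was the 1 gene past 2-fold there, at 4.07 against 1.51 RPKM. Past 2-fold in either direction lay 17.3% of all expressed genes and 13.6% of expressed protein-coding genes. GRB2 and KPNA1, an adaptor and an importin, were at 43.5 and 49.8 RPKM with MA4-022-1 and at 42.4 and 48.0 RPKM with vehicle. The KPNA1 values are summed over 2 rows.

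Genes listed as STAT targets, with no account taken of whether a STAT raises or lowers them, were mostly within 2-fold. Among all expressed protein-coding genes, against which the counts that follow are to be set, 9.49% were lower past 2-fold and 4.12% higher, with a median log2 ratio of -0.10. Of 20 expressed STAT3 targets, 4 were at least 2-fold lower and none higher, with a median log2 ratio of -0.35. With 5 RPKM added, 2 were lower past 2-fold, against 4.26% of all expressed genes on that scale. The 4 were BIRC5 at 21.8 against 94.9 RPKM, FOS at 1.05 against 5.70, CEBPB at 3.32 against 10.4 and MYC at 33.7 against 78.5, MA4-022-1 first. BIRC5 encodes survivin, which also acts in mitosis, FOS and CEBPB encode transcription factors, and MYC encodes one that BET inhibitors are known to lower. VEGFA, a growth factor of vessels, was at 104 RPKM with MA4-022-1 and 178 RPKM with vehicle, within 2-fold. HIF1A, the oxygen-sensing factor above it in that library, was at 171 RPKM with MA4-022-1 and 214 RPKM with vehicle, in part from a row joined with SNAPC1.

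Of 9 expressed STAT5 targets, SOCS2 among them, 3 were at least 2-fold lower and none higher, with a median of -0.38. Of the 3, MYC is counted among the STAT3 targets as well. PIM1, BCL2L1, CCND1 and BCL6 are on both lists too, and the median of -0.38 is the value of CCND1. The STAT3 and STAT5 medians are thus not separate results. DUSP4, a phosphatase of ERK, was at 1.97 RPKM with MA4-022-1 and 6.27 RPKM with vehicle. IGF1, a growth factor, was at 13.1 RPKM with MA4-022-1 and 31.6 RPKM with vehicle, and its 2 rows were lower by unequal amounts, at 10.05 against 11.2 RPKM and at 3.08 against 20.4 RPKM. CCND1, a G1 cyclin, was at 66.8 RPKM with MA4-022-1 and 86.9 RPKM with vehicle.

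Of 14 STAT6 targets 4 were expressed and none was beyond 2-fold. ALOX15, a lipoxygenase that interleukin 4 induces, was at 24.7 RPKM with MA4-022-1 and 39.6 RPKM with vehicle, but its 2 rows went opposite ways, at 6.46 against 4.52 RPKM and at 18.3 against 35.1 RPKM. BCL6, a repressor shared with the STAT3 and STAT5 lists, was at 33.2 RPKM with MA4-022-1 and 26.2 RPKM with vehicle. Of 19 expressed targets of the STAT2 complex, 1 was at least 2-fold higher and 1 lower. Their median of -0.29 turned to 0.062 when 5 RPKM was required. The -0.29 is the value of a row that joins IFITM1 with IFITM2 and was counted for both. With joined rows left out the median was -0.13. With 0.1 RPKM added in place of 1, 1 was higher and 6 were lower. Over all expressed genes that setting gave 12.7% higher and 13.3% lower. MX1, an antiviral GTPase, was at 24.0 RPKM with MA4-022-1 and 8.42 RPKM with vehicle, and all 4 of its rows were higher with MA4-022-1. ISG20, an exonuclease, was at 5.39 RPKM with MA4-022-1 and 13.7 RPKM with vehicle. The lists share members, among them MYC and BCL6, and their medians are descriptions of 2 libraries.

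**Figure D4:**
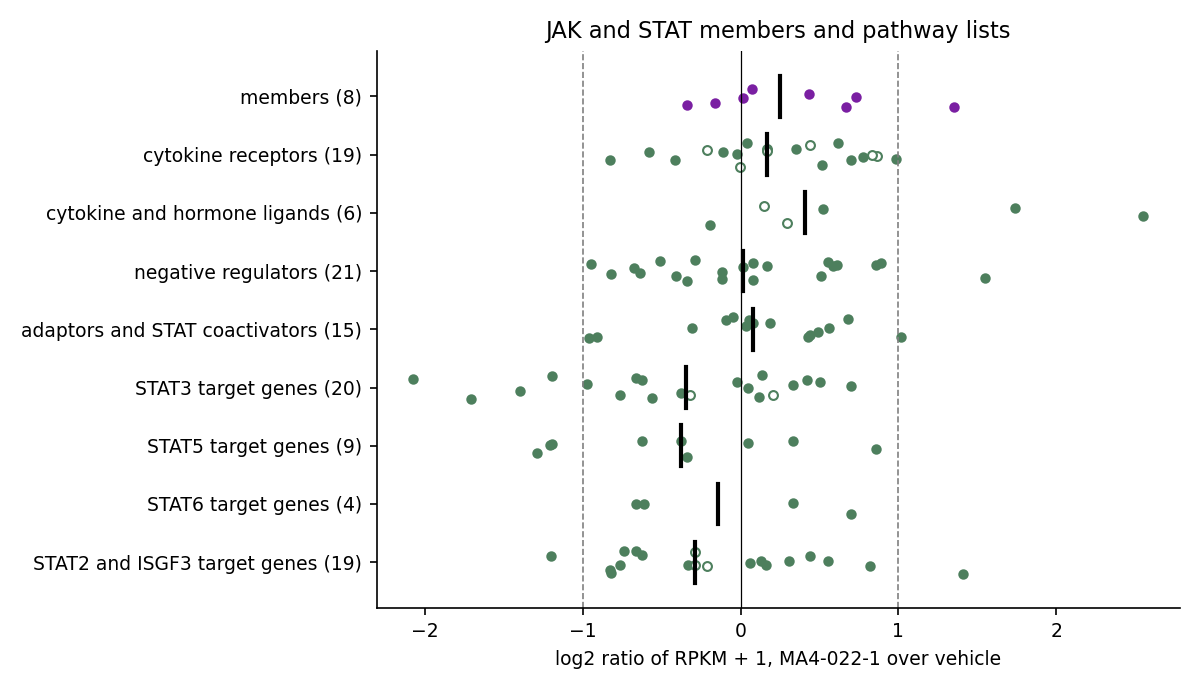
Log2 ratio of RPKM + 1, MA4-022-1 over vehicle, for expressed genes of each list, with the number of genes in brackets, open points for rows that join several symbols and a black bar for the median. JAK1 is the member past 2-fold, and IL7 is the point at 2.55 among the ligands. The STAT3 and STAT5 targets, lists that share genes, have medians of -0.35 and -0.38 against -0.10 over expressed protein-coding genes.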

How the data were processed

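Total RNA of C4-2B cells was depleted of ribosomal RNA, made into ScriptSeq libraries and read as single 50 bp reads, per the labels' protocols. TopHat2 2.0.13, Cufflinks 2.2.1 and hg19 are named in the submitters' processing notes. The authors deposited RPKM per gene, per the file headers, in 62271 rows, of which 2751 without a symbol were left out. Rows of a symbol were summed, including joined rows that hold it. RPKM is no count, so no count test was run. The members, gene lists, alternatives and rule for named genes were chosen with earlier results of these data known. The rule named all members, list genes at 2-fold or more with 5 RPKM in a library, and the 2 of highest vehicle level per list. Short RNAs were left out of the background, and 1 pathway gene is not reported here. Read totals came from processed pseudogenes of 600 to 6000 nt, where 91.1% of values up to 5 reads in the MA4-022-1 library and 92.4% in the vehicle library lay within 2% of a whole step, with a line fitted through them. Reads per member used the median length of coding transcripts in GENCODE release 29 less 201 nt. Intervals came from the delta method for log2 ratios and from the exact binomial for unadjusted ratios. Steps were tested on simulated data. Python 3.11.15, numpy 2.4.6, pandas 2.3.3, scipy 1.17.1 and matplotlib 3.10.9 were used. Alternatives were other pseudocounts, filters, scales, row choices and thresholds.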

Additional observations from a re-analysis of the deposited data

How the results depend on the processing

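The count of members at least 2-fold higher was 1 with 1 RPKM added and 2 with 0.1 RPKM added. It was 2 with none added, an alternative chosen after seeing the data, and 0 with 5 RPKM added. At a 1.5-fold threshold 3 members were higher, and at a 3-fold threshold 0. The count of lower members was 0 under each. Of all expressed genes, 12.7% were higher with 0.1 RPKM added and 2.85% with 5 RPKM added. At the 1.5-fold and 3-fold thresholds, 18.8% and 2.44% of them were higher. STAT6 was the second higher member with little or nothing added, with a log2 ratio of 1.77 with none, and JAK1 dropped under 2-fold with 5 RPKM added. The median of the expressed members was 0.069 when 5 RPKM was required, 0.042 without a filter and 0.43 with housekeeping controls set to 0. The median of all expressed genes, -0.019, was 0.16 under that scaling and -0.12 under equal sums, where TYK2 stood at -0.046, STAT5B at -0.099 and JAK3 at -0.0039. The medians of 5 pathway lists took the other sign in 6 of 90 list and setting pairs, and 167 of 216 counts in the lists stayed within 1.5 times. No paired analysis was possible because each group held 1 library. Depth limits JAK3, STAT5A and STAT6.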

Other observations

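The letters TTCNNNGAA were also looked up across the whole set of promoters. Of expressed protein-coding genes with a RefSeq window, 688 held TTCNNNGAA in a window and 7180 did not. Genes with the letters had a median log2 ratio of -0.13, and past 2-fold 2.91% of them were higher and 12.1% lower. Genes without them had a median of -0.087, and past 2-fold 4.03% were higher and 8.57% lower. These are letter matches in 300 bases around a start, and a gene counted as holding them if any of its windows did. Base composition and the number of windows per gene, which can differ between the groups of genes, were not compared.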
